A study of Mus musculus with 5 samples.

Results

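The probes described here carried a human miRNA name and no mouse name, on arrays hybridised with RNA of C2C12, a line of mouse muscle precursors that forms multinucleate myotubes in low serum. They were chosen by name alone: a probe was taken if its name held a human miR or let-7 entry and no mouse entry, and 242 of the 1436 miRNA probes met this rule. Of the 242, 28 were also named for at least 1 other species and the rest for human alone. RNA came from 5 stages. The first was growing cells at 70 to 80% confluence and the second cells at 100% confluence, and the last 3 were cells kept for 1, 2 or 4 days in 2% horse serum after reaching confluence. Each stage had 4 arrays, described in the labels as 4 biological replicates, and every array also carried a pool of RNA from 4 proliferating replicates. All groups were thus the same line with no genetic change, and the proliferating cells were also the source of the pool.

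Mature miRNAs are short RNAs that guide Argonaute proteins to messenger RNAs, and the bases that follow the first one, called the seed, set most of the pairing. Many miRNAs are shared between human and mouse with the same or nearly the same sequence, while others, such as the large miRNA cluster on human chromosome 19, are found in primates. A probe without a mouse name can therefore stand for a miRNA that mouse cells lack, for one that had no mouse entry when the array was named, or for a relative of a mouse miRNA. Of the 242 human-named probes, 60 had a mouse RefSeq mature miRNA matched by name, and 182 had none. For this match an asterisk was dropped and either arm was accepted, so a passenger-strand name could match the other arm.

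The mouse sequences that bear on the results are those of miRNAs set beside human-named probes below. They come from RefSeq on build GRCm38.p6, with the seed (bases 2 to 8) in capitals. The sequences of the human miRNAs and of the probes were not used here.
mmu-miR-18a-5p: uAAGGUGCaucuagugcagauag
mmu-miR-18b-5p: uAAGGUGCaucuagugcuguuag
mmu-let-7a-5p: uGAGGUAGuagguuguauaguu
mmu-let-7c-5p: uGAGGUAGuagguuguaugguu
mmu-miR-155-5p: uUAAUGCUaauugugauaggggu
mmu-miR-503-5p: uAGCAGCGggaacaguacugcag
mmu-miR-290a-5p: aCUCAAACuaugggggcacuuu
mmu-miR-292a-5p: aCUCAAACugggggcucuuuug
Mouse miR-18a lies at chr14:115043867-115043889 (plus strand) and miR-18b at chrX:52742381-52742403 (minus strand). Counted from the 5′ end, they differ at 2 of 23 positions, A18U and A20U, and share the seed. let-7a and let-7c differ at 1 of 22 positions, A19G, outside the shared seed. miR-290a and miR-292a lie on chromosome 7 and have the same seed and the same first 9 bases.

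Detection was set against the blank spots: in at least 1 of a probe's 2 spots, the median after background subtraction had to exceed the percentile 95 of that array's Empty and negative-control spots. It had to do so on at least 3 of the 4 arrays of a stage, in the channel of the stage's own RNA (in either channel for proliferating and confluent cells). By this rule 79 of the 242 human-named probes were detected (32.6%), against 187 of 343 mouse-named probes (54.5%). Among probes named for plants or viruses alone, 81 of 216 plant-named (37.5%) and 35 of 76 virus-named probes (46.1%) passed, or 39.7% of both kinds together. Over all miRNA probes 39.6% passed, and 2 of 8 negative-control probes passed the same rule. Probes named for other animals, without a mouse name, passed in 29.3% of 416 cases. The share for human-named probes thus lay below those for mouse, plant and virus names and above that for other animals, and detection by this rule does not show that the named miRNA was present.

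Stricter rules kept this order between human and mouse names. With the percentile 99 in place of 95, 58 human-named (24.0%), 151 mouse-named (44.0%) and 88 plant- or virus-named probes (30.1%) passed. With both channels required on at least 10 of the 20 arrays, 49 human-named (20.2%), 39.1% of mouse-named and 77 plant- or virus-named probes (26.4%) passed. These are descriptions of 1 set of arrays, with no test.

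Of the 79 detected, 43 passed at all 5 stages and 15 at 1 stage only. At the other end, 21 of the 242 were not detected in either channel on any array. By stage, 64 passed in proliferating cells, 69 in confluent cells, 55 at day 1, 61 at day 2 and 49 at day 4, where the first 2 stages had both channels to pass in. The edge of the rule was not sharp: 17 detected probes reached at most 3 arrays at any stage (mean log2 intensity 6.71 to 7.66), and 31 undetected ones reached 2 (6.70 to 7.45). A probe with a name-matched mouse RefSeq entry was detected in 20 of 60 cases (33.3%), and one without such an entry in 59 of 182 cases (32.4%).

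Changes were measured as the log2 ratio of the stage to the pool, so that a positive value is higher in the stage. The standard error (SE) and the p-value adjusted by Benjamini-Hochberg over all 569 detected miRNA probes of any species come from limma, and the SD is over n = 4 arrays. The labels name Cy5 for the sample of every stage, yet describe 2 of the 4 replicates as labelled with each dye, and which arrays these were was not stated. The sample's channel was therefore inferred array by array from mouse-named probes alone, which gave red on 6 of the 12 day arrays and green on the others. Thus directions are likely and not certain, and if the whole set were reversed, each rise would read as a fall. A second measure, the distance of each channel from the proliferating arrays, set the overall direction and gave the same side on all 12 day arrays. With the muscle-specific miRNAs left out, this second measure changed side for 1 array, day 1 array 3. Relating each stage to the pool leaves out the uncertainty of a control mean from proliferating cultures, although the scatter of their arrays enters the shared SE. With the proliferating arrays as control instead, turned in each of 6 ways, 14 of the 17 calls described below were lost under at least 1 way. Lost under all 6 were miR-513 at day 1, miR-202 at day 2, and miR-155, miR-572 and let-7a at day 4. Kept under only 1 were miR-363* and miR-638 at day 1, miR-617 and miR-18b at day 2, and miR-583 and miR-518f*526a at day 4.

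Few human-named probes changed. At day 1, 7 of 79 were called (8.86%, 4 higher and 3 lower). Of all detected probes 10.2% were called there (7.03% higher and 3.16% lower), and of plant- or virus-named ones 11.2%. At day 2, 3 were called (3.80%, none higher and 3 lower). Of all detected probes 9.31% were called there (5.98% higher and 3.34% lower), and of plant- or virus-named ones 3.45%. At day 4, 7 were called (8.86%, 3 higher and 4 lower). Of all detected probes 16.3% were called there (9.49% higher and 6.85% lower), and of plant- or virus-named ones 14.7%. Of the probes named for other animals, 6.56% were called at day 1, 9.84% at day 2 and 11.5% at day 4. The day 1 share of human-named probes was near that of all detected probes, and the differences between these shares were not tested. With both channels required on 10 of 20 arrays, 9 of 49 human-named probes were called at day 4 (18.4%). Beside them stood 16 of 77 plant- or virus-named ones (20.8%) and 32.8% of mouse-named ones. Under this filter the day 1 shares were 18.4% for human, 24.7% for plant or virus and 23.1% for mouse names. At day 2 they were 6.12%, 7.79% and 23.9% in the same order, and these differences were not tested either. Of the 187 mouse-named probes detected without this stricter filter, 23 were called at day 1, 30 at day 2 and 46 at day 4. An effect over 1 log2 unit at day 4 was seen in 18 of all 569 detected probes. Among them were 1 of the 79 human-named probes, miR-18b, and 12 of the 187 mouse-named ones. Probes named for other animals, without a mouse name, made up 5 of the 18, and none was named for plants or viruses alone. The differences between these sets were not tested. The median log2 ratio at day 4 was -0.03 over human-named and 0.02 over mouse-named probes.

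At confluence no human-named probe was called by limma (6 at an unadjusted p under 0.05), and 0.351% of all detected probes were. The confluent log2 ratios of the 79 ran from -0.44 to 0.42. The direction of the confluent arrays rests on the authors' deposited table and is the least certain. The 163 undetected human-named probes, fitted without the filter, gave 0 calls in every comparison, with 3 to 13 at an unadjusted p under 0.05.

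miR-18b, a member of the miR-106a-363 cluster on the X chromosome, which is a paralogue of the growth-associated miR-17-92 cluster, had the largest change. Its 4 day 4 arrays read -1.38, -0.68, -1.74 and -1.07. All were below the pool, and it fell by 1.22 on the log2 scale, a 2.33-fold fall (SE 0.19, SD 0.45, limma adjusted p = 4.86e-05). At day 2 the arrays read -0.42, -1.15, -0.06 and -1.09, a mean of -0.68 (adjusted p = 0.0236 by limma). At day 1 they read -0.82, -0.68, 0.00 and -0.01 (adjusted p = 0.223 by limma). The day 4 call held in all 35 alternative settings. The day 2 call was lost without day 2 array 2 (adjusted p = 0.213) or array 4 (adjusted p = 0.204, both limma).

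The mouse-named miR-18 probe gave almost the same course as miR-18b. Its day 4 arrays read -1.49, -0.86, -1.58 and -1.21, a mean of -1.29 (SE 0.14, limma adjusted p = 3.71e-07), and its means at days 1 and 2 were -0.41 and -0.79. Over the 12 day arrays the 2 probes correlated at r = 0.948, a description in which both probes share the arrays and the pool. The next most similar mouse probes were the 2 of miR-20a, with r of 0.889 and 0.874. As the 2 mature sequences differ at 2 positions, signal of one on the probe of the other was possible, and this was not tested.

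miR-617, a human miRNA with no mouse entry in RefSeq, was the other probe with calls that held throughout. At day 1 its 4 arrays read -0.73, -0.62, -0.48 and -0.42, and it fell by 0.56 (SE 0.08, SD 0.14, limma adjusted p = 0.000134). At day 4 they read -0.57, -0.59, -0.48 and -0.34, and it fell by 0.49 (SE 0.08, SD 0.11, limma adjusted p = 0.000165). All 8 of these values lay below the pool and below all 4 confluent values, which were -0.09, 0.06, -0.04 and -0.14. Both calls held in 35 of 35 alternatives. At day 2 it fell by 0.36 (limma adjusted p = 0.00581), a call lost without day 2 array 4 (adjusted p = 0.0579 by limma). No mouse probe followed it closely: the best match over the 12 day arrays was miR-361, at r = 0.648.

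Rises at day 1 were seen in 4 probes, none of which was called at day 2 or day 4. miR-557 had the largest rise, with arrays at 1.35, 0.57, 0.41 and 0.77 and a mean of 0.77 (SE 0.14, SD 0.41, limma adjusted p = 0.00109). Array 1 was the highest and the others lay below 0.8. miR-373*, the passenger strand of a miRNA of human embryonic stem cells, read 0.80, 0.41, 0.28 and 0.87, a mean of 0.59 (SE 0.14, limma adjusted p = 0.00626). miR-638 read 0.58, 0.63, 0.42 and 0.24 (mean 0.47, SE 0.11, limma adjusted p = 0.0115). miR-498, at the edge of the chromosome 19 cluster of primates, read 0.60, 0.30, 0.25 and 0.55 (mean 0.43, SE 0.11, limma adjusted p = 0.0115). All 16 values were above the pool. At confluence, where the direction is least certain, all 4 arrays of each of these probes were also above it and none was called, with means of 0.42 for miR-373*, 0.28 for miR-498, 0.22 for miR-557 and 0.11 for miR-638. The confluent arrays were paired by channel in the way that gave the largest spread over mouse-named probes, so this agreement of 4 arrays is no independent support. The difference between confluence and day 1 was not tested.

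Of 35 alternatives, the day 1 rise held in 32 for miR-557, 29 for miR-373*, 29 for miR-498 and 27 for miR-638. Without day 1 array 1, the limma adjusted p was 0.0813 for miR-373*, 0.103 for miR-498 and 0.0865 for miR-638. Without array 4 it was 0.0569 for miR-373* and 0.0626 for miR-498, and without array 2 it was 0.0599 for miR-638. miR-557 lost its call only when proliferating arrays served as control, under 3 of the 6 ways to turn them.

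The mouse probes most like these 4 included miR-290 and miR-292-5p, of a cluster known from mouse embryonic stem cells, and others outside it. Over the 12 day arrays miR-373* was most like miR-290 (r = 0.966), miR-292-5p (r = 0.904) and miR-296 (r = 0.878). miR-498 was most like miR-292-5p (r = 0.944), miR-296 (r = 0.870) and miR-290 (r = 0.854). miR-557 was most like miR-290 (r = 0.801), miR-296 (r = 0.786) and miR-671 (r = 0.763). miR-638 was most like miR-689 (r = 0.879), miR-292-5p (r = 0.804) and miR-700 (r = 0.768). These are descriptions over arrays that share the pool. miR-292-5p itself read 0.47, 0.46, 0.26 and 0.48 at day 1, a rise of 0.42 (SE 0.09, limma adjusted p = 0.00538). miR-290 read 0.37, 0.14, -0.02 and 0.48 there and was not called (adjusted p = 0.21 by limma). The mouse sequences of this pair are those printed above. Of the 9 mouse probes fixed as embryonic stem cell markers, 3 were detected, and whether these signals came from the named miRNAs was not tested.

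Falls at day 1 were seen in 3 probes. miR-617 is described above. miR-363*, a passenger strand from the cluster that holds miR-18b, read -0.83, -0.13, -0.50 and -0.33 (mean -0.45, SE 0.13, limma adjusted p = 0.0334). It was above the pool on all 4 arrays at day 4, at 0.10, 0.03, 0.32 and 0.18, and not called there. In the authors' deposited table miR-363* stood at -0.24 at day 4, on the other side of the pool, and at -0.45, -0.90 and -0.62 at confluence, day 1 and day 2. miR-513 read -0.63, -0.28, -0.09 and -0.35 (mean -0.34, SE 0.11, limma adjusted p = 0.0439). Without day 1 array 1 the adjusted p from limma was 0.302 for miR-363* and 0.317 for miR-513. Without array 3, whose side by the distance measure changed when muscle miRNAs were left out, it was 0.0827 for miR-363*. miR-363* was also lost without array 4 (limma adjusted p = 0.0626), and miR-513 was lost in 10 of the fits that left out 1 array.

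At day 2 the third fall, after miR-18b and miR-617, was miR-202, a miRNA of the gonads. It read -0.15, -0.65, -0.59 and -0.18 (mean -0.39, SE 0.12, limma adjusted p = 0.0353). It was not called without day 2 array 2 (adjusted p = 0.248) or array 3 (adjusted p = 0.2, both limma). In the authors' deposited table it stood at -0.07 at day 2, nearer to the pool. The mouse-named miR-202 probe was not detected, with a mean log2 intensity of 7.01. Its day 2 log2 ratio, fitted without the filter, was -0.14.

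let-7a, of the let-7 family that accumulates as cells differentiate, rose at day 4 by 0.31 (SE 0.09, SD 0.18, limma adjusted p = 0.0225), with arrays at 0.15, 0.49, 0.45 and 0.15. It was not called at days 1 and 2, with means of -0.01 and 0.12. The call was lost without day 4 array 2 (adjusted p = 0.17) or array 3 (adjusted p = 0.154, both limma). The mouse-named let-7c probe, 1 base from let-7a in the mature mouse sequences, read -0.37, 0.17, 0.15 and -0.39 and was not called (mean -0.11, limma adjusted p = 0.638). The let-7e and let-7f probes, also 1 base from let-7a in mouse (U9G and G12A), had day 4 means of -0.05 and 0.08, and let-7d, let-7b and let-7i had means of 0.08, -0.09 and -0.11. None of these was called. Over the 12 day arrays let-7a correlated best with miR-422b (r = 0.911), which rose at day 4 by 1.98 (SE 0.17, limma adjusted p = 1.77e-08). The difference between the let-7 probes was not tested.

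miR-155, an immune-cell miRNA, fell at day 4 on the human-named probe by 0.48 (SE 0.15, SD 0.28, limma adjusted p = 0.0233), with arrays at -0.77, -0.18, -0.66 and -0.32. The stage's own channel was detected on 2 of the 4 day 4 arrays, so the level there was near background. The mouse-named miR-155 probe read -0.99, -0.25, -0.62 and -0.78 and fell by 0.66 (SE 0.13, limma adjusted p = 0.000776). Both probes were thus lower on every day 4 array. The human-named call was lost without day 4 array 1 (adjusted p = 0.172) or array 3 (adjusted p = 0.142, both limma).

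The remaining day 4 calls were small. miR-572 read -0.26, -0.31, -0.25 and -0.22 (mean -0.26, SE 0.08, limma adjusted p = 0.0238). miR-583 read 0.43, 0.24, 0.27 and 0.38 (mean 0.33, SE 0.10, limma adjusted p = 0.0259). The probe named for miR-518f* and miR-526a, of the chromosome 19 cluster, read 0.49, 0.26, 0.21 and 0.21 (mean 0.29, SE 0.09, limma adjusted p = 0.0236). None of the 12 values crossed the pool, but each call was lost with print-tip loess, at limma adjusted p values of 0.208, 0.696 and 0.238 for miR-572, miR-583 and miR-518f*526a. miR-572 and miR-518f*526a were also lost without any 1 of the 4 day 4 arrays, and miR-583 without array 1, 3 or 4.

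Between day 4 and day 1, 2 human-named probes differed (2.53%, 1 higher and 1 lower). Of all detected probes 4.57% differed (1.76% higher and 2.81% lower), and of plant- or virus-named ones 4.31%. miR-498 was lower at day 4 than at day 1 by a log2 difference of -0.65 (limma adjusted p = 0.0126), with day 4 arrays at 0.04, -0.44, -0.24 and -0.25. miR-583 was higher at day 4 than at day 1 by 0.55 (limma adjusted p = 0.0267), with day 1 arrays at -0.40, -0.22, -0.19 and -0.07. In neither did the day 4 and day 1 arrays overlap, but both probes were picked by this comparison of the same arrays, so that adds no support.

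The highest mean log2 intensities were those of miR-363* at 14.0, miR-663 at 12.9 and let-7a at 12.9, and 21 human-named probes exceeded a log2 intensity of 10, beside 48 mouse-named and 16 plant-named ones. Probe brightness also depends on the probe, so these are not miRNA levels. The mouse-named miR-363 probe, whose name lacks the asterisk, was not detected, with a mean log2 intensity of 6.81 and either channel passing on 5 of 20 arrays. Whether the bright miR-363* signal came from the named miRNA was not tested. Of the 10 brightest, miR-363*, let-7a, miR-498 and miR-373* were called on at least 1 day, and miR-663, miR-612, miR-584, miR-769-3p, miR-659 and miR-518c* on none. In all, 14 of the 79 were called at day 1, 2 or 4, beside 131 of all 569 detected probes. Of mouse-named probes 57 of 187 were called, of plant-named ones 20 of 81 and of virus-named ones 10 of 35. Neither these differences nor a relation of calls to brightness was tested. miR-663 came nearest at day 4, with arrays at 0.02, -0.41, -0.36 and -0.63 (mean -0.34, SE 0.13, limma adjusted p = 0.0836).

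Grouped by name, the cluster on chromosome 19 of primates (miR-498 and miR-512 to miR-527) had 44 probes and 14 detected. That number range also takes in miR-513 and miR-514, which belong to a cluster on the human X chromosome, and without them 13 of 42 were detected (31.0%), with 1 call at day 1 (7.69%), none at day 2 and 1 at day 4 (7.69%), where the shares over all detected probes were 10.2%, 9.31% and 16.3%. Their median log2 ratio at day 4 was -0.01, against -0.01 over all detected probes. The probes numbered miR-549 to miR-661, many of them found by cloning in human cells, had 33 of 109 detected, with 3 calls at day 1 (9.09%), 1 at day 2 (3.03%) and 3 at day 4 (9.09%), beside the same shares over all detected probes. Of miR-371 to miR-373 and miR-302, miRNAs of pluripotent cells, 2 of 7 were detected and miR-373* was called at day 1, beside 10.2% of all detected probes. None of the 4 miR-548 probes was detected. Over all miRNA probes 39.6% were detected, and groups this small are no basis for comparing shares.

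In groups that mouse cells share, the miR-17-92 cluster and its paralogues had 5 human-named probes with 3 detected, namely miR-18b, miR-363* and miR-18a*. miR-18a* was near the detection limit and its day 4 log2 ratio was 0.00 (SE 0.11). Of the cell-cycle-linked miR-424 and miR-503, both were detected and neither was called: miR-503 read 0.11, 0.16, -0.21 and 0.63 at day 1 (mean 0.17, limma adjusted p = 0.365). The mouse-named miR-503 probe read 0.43, 0.48, 0.01 and 0.75 at day 1 and rose by 0.42 (SE 0.11, limma adjusted p = 0.0159). Of 21 human-named probes of the imprinted Dlk1-Dio3 cluster, 5 were detected (23.8%, beside 39.6% of all miRNA probes) and none was called on any day. Of all detected probes 10.2%, 9.31% and 16.3% were called at days 1, 2 and 4. With so few probes detected, the absence of calls is no result about this cluster or about miR-424 and miR-503. Probes whose names carry an asterisk (passenger strand) or a 3p or 5p arm, which need not be a passenger strand, had 16 of 39 detected. They had 2 calls at day 1 (12.5%) and 1 at day 4 (6.25%), beside 10.2% and 16.3% over all detected probes. None of the 242 probes carried the number of a muscle-specific miRNA.

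As a description of the cells, 4 of 5 skeletal muscle marker probes (mouse-named) were detected and all 4 were higher at day 4, led by miR-206 at 4.13 log2 units. Muscle-specific miRNAs were among the mouse-named probes from which the sample's channel was inferred. Their direction is thus no independent check. When they were left out, the second measure, distance from the proliferating arrays, changed side for day 1 array 3 only. All 4 smooth muscle and fibroblast marker probes (miR-214, miR-143, miR-145 and miR-199a) were detected, and 1 was higher at day 4. Neither of the 2 endothelial marker probes was detected, and 1 of 3 neuronal and 1 of 5 epithelial ones were. Of 6 blood marker probes, 2 were detected and 1 was higher at day 4, and their part in the fall of miR-155 was not tested. The 4 proliferating arrays gave no direction: the median size of their log2 ratio, red over green, was 0.17 over human-named and 0.16 over mouse-named probes.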

How the data were processed

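The deposited files hold, per spot and channel, foreground and background intensity values of 20 two-colour arrays (3072 spots, 1488 distinct probes), not normalised, per the file headers. The deposited table of log2 ratios has 1 value per probe and stage, with scale, centring and direction unstated by the authors; across all probes its columns correlated with the effects computed here at 0.588 (confluent), 0.751 (day 1), 0.841 (day 2) and 0.850 (day 4), and its column medians lay within 0.02 of 0. Scanner and dye per array are not given in the sources used here.

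Medians were corrected with normexp (offset 50) and global loess in limma 3.58.1 (R 4.3.3), which gave controls no weight, and repeat spots were averaged. The model had a dye term and 4 stage effects over 20 arrays (15 residual degrees of freedom), with a threshold of 0.05 over 569 probes. It was also run on simulated data with independent noise and the channels taken as known, which cannot check the inferred channels or the shared pool. The sample's channel was taken from 173 mouse-named probes: the day arrays correlated at 0.450 to 0.936 when turned alike and -0.844 to -0.490 when turned oppositely. Confluent arrays were paired by channel in the way that gave the largest spread of pair differences over these probes (0.173, lowest 0.0963). Their direction was then taken from the deposited table (r = 0.783), a departure from the plan, which gave sizes only. The number of arrays limits the precision. Hyphens missing before 3p in the files' names were restored.

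The human-named probes and the lists were chosen with earlier results of these data known. Named were all called probes, the 10 brightest and up to 3 of each name group with the smallest p at day 4, which gave 30 probes; mouse probes set beside them were chosen after their values were seen. Alternatives were the background offset, the normalisation, the filter, the arrays fitted, the control, repeat spots, the adjustment and leaving out each array.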

Additional observations from a re-analysis of the deposited data

Results flagged for a closer look

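For 2 probes, results stood out because the effects at day 4 and day 1 differed by the test of the difference itself. miR-498 differed between day 4 and day 1 by a log2 value of -0.65 (limma adjusted p = 0.0126). miR-583 differed between day 4 and day 1 by 0.55 (limma adjusted p = 0.0267). None of 120 groups of 4 arrays held an array apart from the rest by Dixon's test.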

How the results depend on the processing

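Of 17 calls at days 1, 2 and 4, 3 held in all 35 alternatives: miR-18b at day 4 and miR-617 at days 1 and 4. No named value reversed where it was called. With median centring the counts of human-named probes called were 4 (day 1), 1 (day 2), 4 (day 4) and 0 (day 4 against day 1). With no filter they were 2 at day 4 and 1 for day 4 against day 1. With day arrays only they were 1 at day 2 and 2 at day 4. With proliferating arrays as control, under the 6 ways to turn them, they were 4 at confluence (way 1) and 10, 1, 1, 2, 4 and 1 at day 1. Under the same ways they were 5, 0, 0, 0, 0 and 1 at day 2, 3, 3, 2, 2, 2 and 4 at day 4, and 6 for day 4 against day 1 (ways 1 and 6). Print-tip loess gave 9 at day 1 and 5 at day 4. Both channels required gave 9 at day 1 and 9 at day 4, and repeat spots apart gave 10 at each. Day 4 against day 1 also gave 6 with print-tip loess, 6 with both channels required and 11 with repeat spots apart. Detection with both channels required gave 49. Leaving out 1 array gave 0 at confluence, 2 to 8 at day 1 (lowest without day 1 array 1), 1 to 3 at day 2 (without day 2 array 2 or 4), 2 to 8 at day 4 (without day 4 array 3), 1 to 6 for day 4 against day 1, and 72 to 79 detected. No paired analysis was possible because the labels give no replicate numbers that tie arrays across stages.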
